A study of Mus musculus with 25 samples.

Results

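Integrins are the receptors with which cells hold on to the extracellular matrix, and laminins are the large matrix proteins to which basal skin cells are anchored. The genes described here are the integrin and laminin genes of mouse skin stem cells other than Itga6 and Itgb4, which form the integrin of the hemidesmosome. They were chosen by symbol, as every Itga, Itgb, Lama, Lamb or Lamc gene with 10 or more counts in at least 1 of 21 RNA libraries. All 35 genes with such a symbol passed, of 24061 gene rows: 17 alpha integrins, 7 beta integrins and 11 laminin chains. Itgad came closest to the limit, with 22 counts in its highest library. Lama3 and Lamb3, chains of the laminin that hemidesmosomes bind, were kept by this rule, so the name "outside the hemidesmosome" holds for the integrins and not for every laminin chain.

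The study compared stem cells of unwounded skin, of healing wounds and of grafted tumours, from female mice, by RNA-seq of 21 libraries and by ATAC-seq, which maps open chromatin, of 4 pooled samples. All RNA libraries were labelled as strain B6, and every unwounded or wounded RNA group was a lineage-negative sort of integrin alpha 6 high cells from animals of postnatal day 60. Hair follicle stem cells (HFSC) were CD34+Sca1- and epidermal stem cells (EpdSC) were CD34-Sca1+, with 2 libraries of each in the set called CL, 2 of each in the set called BK, and 1 of each in the set DS, whose names carry only the word Tbr. In CL, 2 libraries of the wounded HFSC lineage were YFP+ and 2 of wounded EpdSC were YFP-, both from Sox9CreER;R26-YFP mice. In those mice a drug-inducible Cre under control of Sox9 switches on YFP, so a YFP- cell is any sorted cell that Cre did not mark. The 1 wounded EpdSC library of BK had no YFP gate. Its column name also carries the letters A5pos3, which no label explains. The 6 tumour libraries were GFP+ cells of grafted tumours, labelled HRas, HRas TbrKO or TbrKO, with 1 integrin alpha 6 high and 1 low library each and no lineage depletion named. The ATAC-seq samples came from CD1/B6 mixed mice: HFSC and EpdSC of postnatal day 50, wound cells gated on integrin alpha 6 and Sca1 from full- and partial-thickness wounds, and GFP+ tumour cells high for integrins alpha 6 and beta 1. Itgb1, one of the genes described, was therefore itself part of the tumour gate.

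An integrin is a pair of an alpha and a beta chain, and the pair decides what is bound. Itgb1 is the shared partner of most matrix receptors of basal keratinocytes, among them Itga3 with Itgb1 for laminin, Itga2 with Itgb1 for collagen and Itga5 with Itgb1 for fibronectin, the provisional matrix of a wound. Itgav pairs with Itgb3, Itgb5, Itgb6 or Itgb8, and its pairs with Itgb6 and Itgb8 also release active TGF-beta from its latent complex. A laminin is a trimer of an alpha, a beta and a gamma chain. A separate group of 8 integrin genes is typical of leukocytes and not of keratinocytes: Itgal, Itgam, Itgax and Itgad, which all pair with Itgb2, then Itgb2 itself, Itgae and Itgb7, which pair with each other, and Itga4, which pairs with Itgb1 or Itgb7. Of these, Itga4 is also made by some other cells. Itga2b is the integrin of platelets and their precursors.

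The results on single genes turn most on Itga5 and Itga4, with Itgb1 as a gene whose promoter lay in a peak in every population. RefSeq's promoter table (build GRCm38.p6, the assembly of mm10) held a window for 23 of the 35 genes. The 250 bases before the start site of these 3 genes are printed 5′ to 3′ on the gene's strand, Itga5 from chr15:103366792-103367041 (minus strand), Itga4 from chr2:79255176-79255425 (plus) and Itgb1 from chr8:128685404-128685653 (plus). Capitals mark the GC box (GGGCGG or CCGCCC), in Itga4 also the RUNX motif (TGTGGT or ACCACA) and in Itgb1 also the TEAD motif (GGAATG or CATTCC), and no 2 of the marked motifs overlap.
Itga5: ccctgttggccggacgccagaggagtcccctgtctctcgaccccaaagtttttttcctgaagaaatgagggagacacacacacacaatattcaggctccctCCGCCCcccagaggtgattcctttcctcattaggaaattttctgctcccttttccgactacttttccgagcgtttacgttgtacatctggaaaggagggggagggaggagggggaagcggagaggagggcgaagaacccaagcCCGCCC
Itga4: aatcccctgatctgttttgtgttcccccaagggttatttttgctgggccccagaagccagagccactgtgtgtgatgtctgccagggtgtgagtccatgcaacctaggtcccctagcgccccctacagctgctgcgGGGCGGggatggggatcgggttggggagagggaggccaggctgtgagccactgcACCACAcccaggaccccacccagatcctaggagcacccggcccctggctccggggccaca
Itgb1: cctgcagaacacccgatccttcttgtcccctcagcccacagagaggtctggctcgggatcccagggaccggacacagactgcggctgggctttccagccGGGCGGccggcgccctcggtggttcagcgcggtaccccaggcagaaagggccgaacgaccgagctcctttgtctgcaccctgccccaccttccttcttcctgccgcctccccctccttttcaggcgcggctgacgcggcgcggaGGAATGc
The GC box was found on either strand in 8 of the 23 genes and in 32.7% of all 32851 windows of this length. The RUNX motif was found in Itga3 and Itga4, and in 14% of all windows. The TEAD motif was found in Itga10, Itgb1 and Lamb3, and in 12.6% of all windows. The AP-1 motif TGANTCA was found in Itgax alone, and in 6.75% of all windows. Such a match describes letters and is not a binding site.

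The RNA libraries held 14216472 to 36425082 counts, and libraries of a group differed by more than counting noise. Summed CPM of 5 keratinocyte markers (Krt5, Krt14, Trp63, Cdh1 and Epcam) lay between 19536 and 147778 in every library. Follicle stem cell markers (Cd34, Lhx2, Sox9, Lgr5 and Krt24) summed to 1012 to 5032 CPM in the 5 unwounded HFSC libraries, to 33 to 67.1 CPM in the 5 unwounded EpdSC libraries and to 57.3 and 58.1 CPM in the wounded HFSC lineage. The name of the wounded HFSC lineage therefore rests on the YFP label and not on these markers. Levels below are CPM, each gene's counts scaled to the library's total, after TMM normalization over all 21 libraries, and are compared between libraries, not between genes. Differences are log2 fold changes with their standard error from edgeR's quasi-likelihood test, called at a Benjamini-Hochberg adjusted p under 0.05 over all genes tested. Whether replicate libraries stem from different mice is not in the labels, and the p-values reflect only how far these libraries differ, which may be technical. The heat map of 34 members shows the leukocyte integrins as the block with the widest range.

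**Figure D1:**
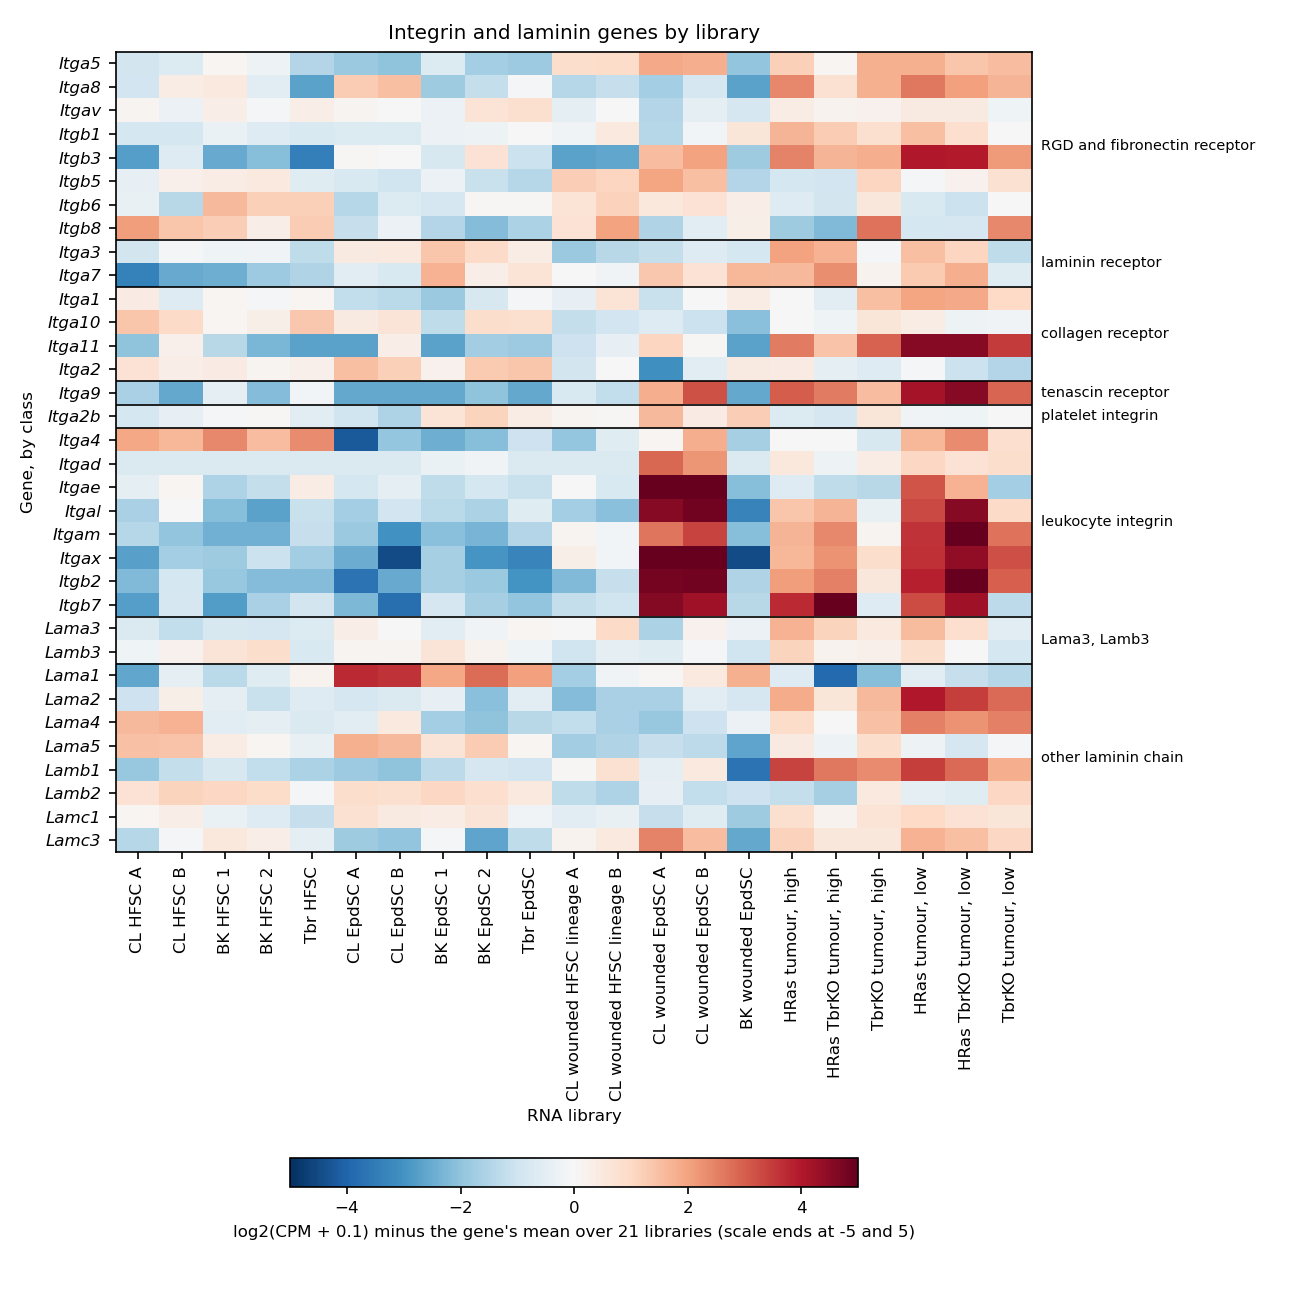
Heat map of 34 integrin and laminin genes (rows, by class) in 21 RNA libraries (columns), coloured by log2(CPM + 0.1) minus the gene's mean over all libraries, with colours ending at 5 log2 units either side. The leukocyte integrins other than Itga4 stand out in CL wounded EpdSC, and Lama1 in unwounded EpdSC. Itgam, Itgax and Itgb2 are above every unwounded library in all tumour libraries, and Itgb7 in all HRas-bearing ones. Within unwounded skin, Itgb8 and Itga4 are higher in HFSC than in EpdSC. Outside it, Itgb8 reaches 60.7 CPM in TbrKO tumours and Itga4 9.38 CPM in HRas TbrKO tumours.

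In unwounded skin, HFSC had more Itga4, Itgb8, Itga5 and Lama4 than EpdSC, and EpdSC had more Lama1, Itga7 and Itga3. With CL and BK fitted together and the set as a term, 6 of the 33 members tested were higher in HFSC and 5 lower, against 14.1% of all genes tested higher and 9.38% lower. In CL alone 4 of 35 were higher and 2 lower (7.19% and 3.63% of all genes), and in BK alone 3 of 32 were higher and 3 lower (7.91% and 6.47%). The median log2 difference of the members was 0.14 in the combined fit.

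Among the fibronectin and RGD receptors, Itga5 was at 17.6 and 20.8 CPM in CL HFSC and at 9.09 and 8.1 CPM in CL EpdSC. In BK it was at 35.9 and 27.9 CPM in HFSC and at 20.8 and 10.2 CPM in EpdSC. HFSC were higher than EpdSC within each set, although the CL HFSC overlapped the BK EpdSC. The log2 fold change was 1.13 ± 0.24 (SE, adjusted p = 0.00896) in the combined fit and 1.15 ± 0.19 (adjusted p = 0.00746) in CL. In BK it was 1.03 ± 0.42 and did not pass (adjusted p = 0.161), and in CL the call was lost without EpdSC A (adjusted p = 0.0755) or EpdSC B (0.0954). Itgb8, the TGF-beta-activating partner of Itgav, was at 39.4 and 24 CPM in CL HFSC and 21.7 and 11.5 CPM in BK HFSC, against 4.02 and 7.33 CPM and 3.22 and 1.95 CPM in EpdSC. No HFSC library overlapped an EpdSC library, and the log2 fold change was 2.61 ± 0.32 (adjusted p = 0.000625). In CL alone Itgb8 lost its call without any 1 of the 4 libraries (adjusted p 0.0557 to 0.239), and in BK alone without HFSC 1 (0.0591). Itgb5, a vitronectin receptor chain, was higher by 0.99 ± 0.22 (adjusted p = 0.0121), and by 0.70 (adjusted p = 0.0814) after a trend with gene span was removed. Itgb6, the other TGF-beta-activating chain, passed in BK (1.72 ± 0.40, adjusted p = 0.0394) and lost its call there without HFSC 1 (0.191) or HFSC 2 (0.057). In CL its log2 fold change was 0.20 ± 0.38. Itgb1 was at 365 to 538 CPM in HFSC and 411 to 559 CPM in EpdSC of these sets, and its log2 fold change of -0.16 ± 0.15 did not pass (adjusted p = 0.491).

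The laminin receptors went the other way. Itga7, best known as a laminin receptor of muscle, was at 0.799 to 2.57 CPM in the 4 HFSC libraries and at 5.33 to 30.6 CPM in the 4 EpdSC libraries. The groups did not overlap, and HFSC were lower by a log2 difference of -2.82 ± 0.42 (adjusted p = 0.00172). In CL alone its call was lost without EpdSC A (adjusted p = 0.0637). Itga3 was lower in HFSC by -1.10 ± 0.24 (adjusted p = 0.0104), at 165 to 296 CPM against 417 to 801 CPM, and in BK alone lost its call without HFSC 1 (adjusted p = 0.469) or HFSC 2 (0.419). Among collagen receptors Itga1 was higher by 1.31 ± 0.35 (adjusted p = 0.0265), a call lost without any of 5 libraries (adjusted p 0.0594 to 0.0865).

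Itga4 was the member with the largest difference in favour of HFSC. It was at 6.98 and 5.73 CPM in CL HFSC, 9.58 and 5.23 CPM in BK HFSC and 9.41 CPM in Tbr HFSC, against 0 and 0.386 CPM, 0.238 and 0.325 CPM and 0.803 CPM in EpdSC. Every HFSC library was above every EpdSC library, and the log2 fold change was 4.95 ± 0.65 (adjusted p = 0.00082). In CL alone its call was lost without 3 of the 4 libraries, 1 at a time (adjusted p 0.0714 to 0.151). The other leukocyte integrins did not follow: of the 7 tested, Itga4 was the 1 that passed. Leukocyte markers, of which 12 of 14 were in the table, summed to 44.3 to 119 CPM in these HFSC and 24.9 to 76.5 CPM in these EpdSC, and 0 of 11 tested passed. Melanocyte markers were higher in HFSC (5 of 6 tested passed), as were fibroblast markers (3 of 5), with sums of 61.7 to 182 and 36.9 to 92.7 CPM against 9.09 to 21.9 and 1.16 to 3.31 CPM. Most of each HFSC sum was a single gene, Mitf at 49.6 to 92.9 CPM and Col1a2 at 31.1 to 66.1 CPM. The melanocyte marker Pmel was lower in CL HFSC (2.51 and 3.81 CPM) than in CL EpdSC (4.61 and 6.68 CPM). In bulk RNA, more cells of a type and more RNA per cell cannot be told apart, and the part of these other cells in the Itga4 result was not tested.

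Among laminin chains, Lama1 showed the largest difference of any member tested in favour of EpdSC. This alpha chain of early embryonic basement membranes was at 74.9 and 70.1 CPM in CL EpdSC, 21.8 and 39.2 CPM in BK EpdSC and 23.4 CPM in Tbr EpdSC. In HFSC it was at 0.828 and 4.08 CPM, 2.14 and 3.64 CPM and 6.36 CPM. No HFSC library reached an EpdSC library, and the log2 difference was -4.10 ± 0.56 (adjusted p = 0.00098), with -4.91 ± 0.78 in CL and -3.40 ± 0.49 in BK, both past the threshold and kept without each library in turn. Lama4, the alpha chain best known from blood vessels, was higher in HFSC by 1.54 ± 0.26 (adjusted p = 0.00306). It was at 35.3 and 38.7 CPM against 7.71 and 16.2 CPM in CL, and 7.78 and 8.27 CPM against 3.4 and 2.78 CPM in BK, where its log2 fold change of 1.36 ± 0.36 did not pass (adjusted p = 0.057). In CL alone its call was lost without any 1 of the 4 libraries (adjusted p 0.0537 to 0.277). Lama3 (-0.78 ± 0.21, adjusted p = 0.0273) and Lamc1 (-0.67 ± 0.19, adjusted p = 0.0329) were lower in HFSC by less, and lost their calls without 6 and 4 of the libraries respectively (adjusted p up to 0.0884 and 0.132).

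**Figure D2:**
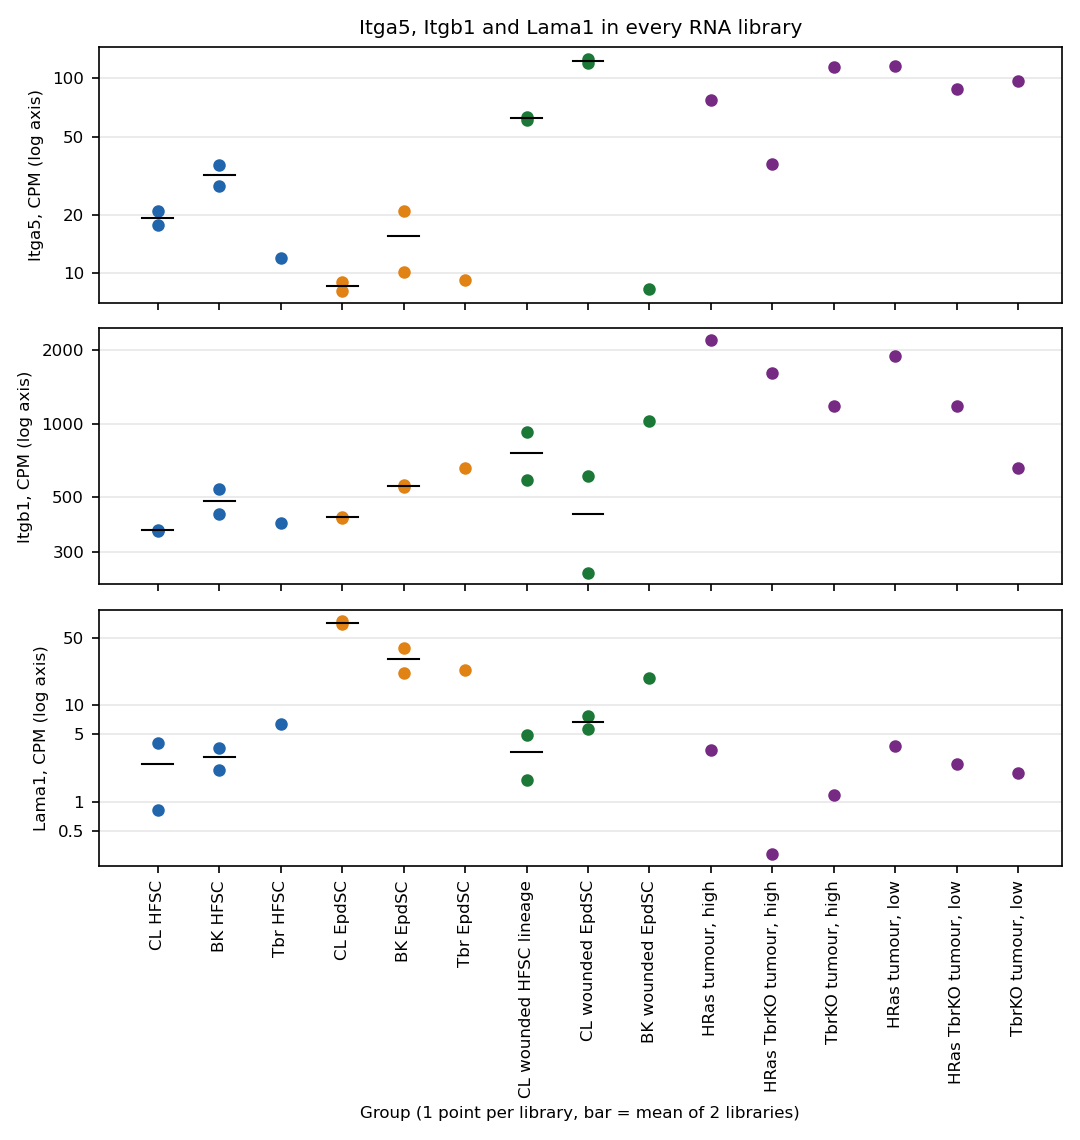
Level of Itga5, Itgb1 and Lama1 (CPM, log axis) in each of 21 RNA libraries by group, with 1 point per library and a bar at the mean of groups with 2 libraries. Itga5 is at 60.9 to 125 CPM in CL wound cells and 8.1 to 35.9 CPM in unwounded skin. Lama1 is at 21.8 CPM or more in the 5 unwounded EpdSC libraries and at 19.1 CPM or less elsewhere.

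Among the partners of these genes, lists were read for counts. Of 10 matrix ligands tested, 5 were higher and 3 lower in HFSC. Ctgf (6.27 ± 0.57, adjusted p = 0.000113) and Postn (3.86 ± 0.52, adjusted p = 0.00095), ligands of Itgav pairs, were higher. So was Fbln5 (adjusted p = 0.000944), an elastic fibre protein, with a mean of 1.29 CPM in HFSC and 0.0149 CPM in EpdSC, too low for a fold change to be given. Of 11 basement membrane partners of laminin, 4 were higher and 2 lower, among them the collagen IV chains Col4a3 (3.96 ± 0.30) and Col4a4 (4.38 ± 0.61). Of 14 activators and adaptors 1 was higher, Fermt2 (3.97 ± 0.39, adjusted p = 0.000175), the kindlin that switches on Itgb1 integrins in many tissues. Of 6 hemidesmosome genes 2 were lower, Itga6 (-1.68 ± 0.26) and Plec (-0.76 ± 0.21). Itga6 was the marker of the sort, so its level between gates is no finding. Of 4 other laminin receptors (Dag1, Bcam, Sdc1 and Sdc4), none passed by edgeR and 1 had an unadjusted p under 0.05.

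After wounding, the YFP+ cells of the HFSC lineage had more Itga5, Itga7, Itgb6 and Lamb1 than unwounded HFSC and less Lama4, Lama5, Lamb2 and Itga10, and these 8 calls were kept without each library in turn. In all, 8 of 35 members were higher and 6 lower, against 21.4% and 24.7% of all genes, so the share of members called was near that of all genes. The members' median log2 fold change was -0.14 and that of all genes -0.10.

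Itga5 was at 60.9 and 63 CPM in the wounded HFSC lineage and 17.6 and 20.8 CPM in HFSC, without overlap. The log2 fold change was 1.68 ± 0.19 (adjusted p = 0.000366). Itgb6, a chain that keratinocytes are known to raise in wounds, went from 25 and 12.2 to 51.5 and 72.4 CPM (1.73 ± 0.39, adjusted p = 0.00851). Itgb5 was higher by 1.17 ± 0.27 (adjusted p = 0.00984), a call lost without HFSC A (adjusted p = 0.0532) or wounded HFSC lineage A (0.0522). Itgb1 was at 589 and 927 CPM against 365 and 368 CPM, and its log2 fold change of 1.05 ± 0.41 did not pass (adjusted p = 0.0722). The laminin receptors split: Itga7 was higher by 2.92 ± 0.39 (adjusted p = 0.000854), at 9.22 and 8.23 CPM against 0.799 and 1.5 CPM, while Itga3 was lower by -1.19 ± 0.34 (adjusted p = 0.0229). The Itga3 call was lost without HFSC B (-0.69, adjusted p = 0.15) or wounded HFSC lineage A (0.149). Itga10, a collagen receptor best known from cartilage, was lower by -2.36 ± 0.41 (adjusted p = 0.00268).

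The laminin chains also split by chain. Lama3 (1.53 ± 0.57, adjusted p = 0.0582) and Lamb3 (-0.70 ± 0.29, adjusted p = 0.0835) did not pass. Lamb1 was at 40.7 and 65.8 CPM against 10.4 and 16.8 CPM (1.96 ± 0.41, adjusted p = 0.0063). Lama5, with Lamb1 or Lamb2 and Lamc1 a laminin of adult epithelial basement membranes, was at 50 and 58.8 CPM against 451 and 443 CPM (-3.05 ± 0.20, adjusted p = 4.38e-05). Lamb2 was at 32.5 and 26.9 CPM against 129 and 170 CPM (-2.34 ± 0.30, adjusted p = 0.000671). Lama4 was at 4.82 and 3.6 CPM against 35.3 and 38.7 CPM (-3.15 ± 0.44, adjusted p = 0.00104). For Lamb1, Lama5, Lamb2 and Lama4 the groups were apart. Lama1 was at 1.66 and 4.89 CPM against 0.828 and 4.08 CPM, and its log2 fold change of 0.43 ± 0.72 did not pass (adjusted p = 0.652).

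Of the leukocyte integrins, Itgax and Itgam were higher and Itga4 was lower. Itgax was at 2.57 and 1.9 CPM against 0.237 and 0.577 CPM (2.48 ± 0.55, adjusted p = 0.00823) and lost its call without HFSC A (0.0643). Itgam was at 4.85 and 3.94 CPM against 1.57 and 1.04 CPM (1.73 ± 0.43, adjusted p = 0.0125), and lost its call without HFSC B (0.0775) or wounded HFSC lineage A (0.0584). Itga4 was at 0.381 and 1.1 CPM against 6.98 and 5.73 CPM (-3.10 ± 0.94, adjusted p = 0.0286), lost without 3 of the 4 libraries (adjusted p 0.069 to 0.148). Leukocyte markers summed to 39.1 and 34.8 CPM in the wounded lineage and to 44.3 and 119 CPM in HFSC, with Cd8a at 0 in wounded HFSC lineage A. Of 12 tested, 1 was higher and 4 were lower. Melanocyte markers were also lower, in 5 of 7 tested, with sums of 7.32 and 5.76 CPM against 96.5 and 61.7 CPM, and their part was not tested. Most of the HFSC sum was Mitf, which was at 3.19 and 3.03 CPM against 89.3 and 49.6 CPM.

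Wounded EpdSC of CL changed more members than any other group tested here. Of 35 members, 17 were higher than in EpdSC and 9 lower, against 30.2% and 28.2% of all genes. The 17 held all 8 leukocyte integrins, Itga2b and 8 other genes, of which Itga5 had the smallest adjusted p of any member. The members' median log2 fold change was 1.60 and that of the 26 members that are no leukocyte or platelet integrin was -0.26, beside -0.04 over all genes.

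Itga5 was at 125 and 119 CPM in wounded EpdSC and 9.09 and 8.1 CPM in EpdSC. The log2 fold change was 3.81 ± 0.20 (adjusted p = 2.06e-05), and the call was kept without each library. Itgb5 was at 391 and 278 CPM against 58.8 and 49 CPM (2.61 ± 0.29, adjusted p = 0.000265). Itgb6 was higher by 1.60 ± 0.39 (adjusted p = 0.00929), lost without EpdSC A (0.0815). Itgb1, the partner of Itga5, was at 246 and 609 CPM against 416 and 411 CPM, so the wounded libraries lay on either side of the unwounded (0.04 ± 0.41, adjusted p = 0.936). Itga8, an RGD receptor, was lower by -3.10 ± 0.84 (adjusted p = 0.0142), at 0.0996 and 0.262 CPM against 1.47 and 1.74 CPM, and lost its call without 3 of 4 libraries (adjusted p 0.0734 to 0.132). Itga7 was higher by 1.71 ± 0.36 (adjusted p = 0.00488) and Itga3 lower by -1.36 ± 0.34 (adjusted p = 0.0107), the latter lost without EpdSC B (0.0537).

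Of the 4 collagen receptors, 2 were lower and none was higher. Itga2 was at 4.03 and 23.3 CPM against 99.8 and 80.5 CPM (-2.72 ± 0.72, adjusted p = 0.0129), lost without EpdSC A (0.0596). Itga10 fell by 1.49 ± 0.41 on the log2 scale (adjusted p = 0.015), lost without EpdSC B (0.0693) or wounded EpdSC B (0.0566). Itga9, a tenascin and Vcam1 receptor chain, was at 0 in both EpdSC libraries and at 1.94 and 5.23 CPM in wounded EpdSC, at least 22.5-fold higher against a floor of 3 counts per library.

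Among the laminin chains, Lamb1 was higher and Lama5, Lamb2 and Lama4 were lower, as in the wounded HFSC lineage, while Lamc1, Lamc3 and Lama1 were called here and not there. Of the 11 chains, Lama1 passed the test of the difference between the responses given below and 5 had an unadjusted p under 0.05, so the other responses are not shown to be alike. Lamb1 was at 28.1 and 53.6 CPM against 10.9 and 9.45 CPM (2.00 ± 0.42, adjusted p = 0.00466). Lama5 was at 74.3 and 67.3 CPM against 573 and 509 CPM (-2.95 ± 0.20, adjusted p = 3.59e-05). Lamb2 (-1.63 ± 0.29) and Lamc1 (-1.49 ± 0.25) were lower too, and so was Lama4 (-1.49 ± 0.43, adjusted p = 0.0181). Lama4 lost its call without EpdSC B (0.142) or wounded EpdSC A (0.0802) and with the span trend removed (0.0574). Lama1 was at 5.73 and 7.8 CPM against 74.9 and 70.1 CPM (-3.43 ± 0.72, adjusted p = 0.00495). Lamc3 was higher by 4.58 ± 0.80 (adjusted p = 0.00207), from 0.168 and 0.129 to 4.98 and 2.57 CPM. In wounded EpdSC, long genes had fewer reads than short ones relative to the other libraries: the slope of the log2 level per doubling of gene span was -0.28 in A and -0.12 in B, against 0.087 and 0.077 in EpdSC. Laminin genes can be long, up to 635907 bases from start to end for Lama2. After the trend was removed, 19 members were higher and 8 lower, beside 26.3% and 31.5% of all genes.

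**Figure D3:**
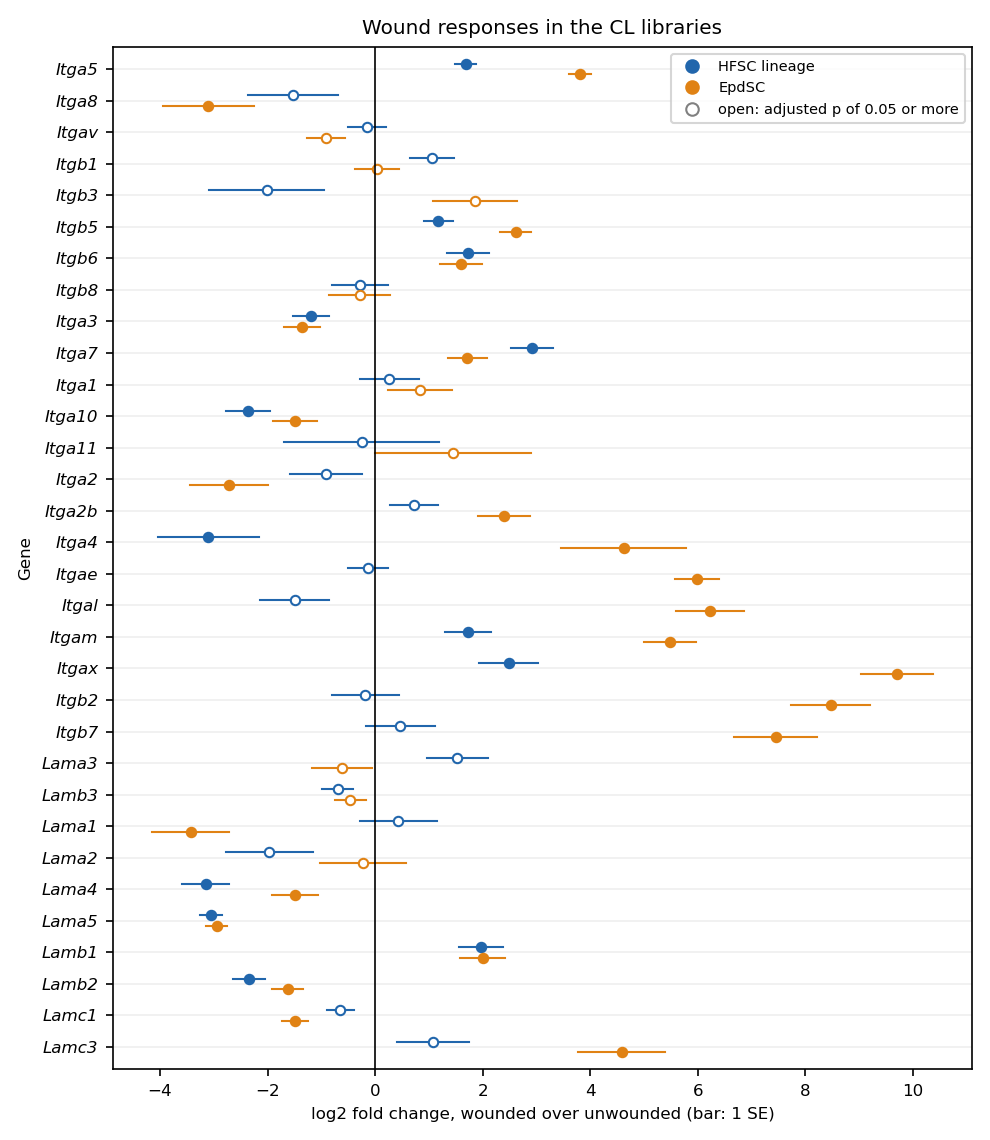
Log2 fold change of wounded over unwounded CL cells, with a bar of 1 SE either side, for 32 genes in the HFSC lineage (blue) and EpdSC (orange). Filled points passed an adjusted p of 0.05. Itga9 and Itgad are left out, as at least 1 group was at 0. Itga5, Itgb5, Itgb6, Itga7 and Lamb1 lie to the right in both, Lama4, Lama5, Lamb2, Itga3 and Itga10 to the left in both, and the leukocyte integrins are far right in EpdSC.

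All 8 leukocyte integrins were higher in wounded EpdSC. Itgax was at 161 and 139 CPM against 0.293 and 0 CPM (9.70 ± 0.67, adjusted p = 3.96e-05), and Itgb2 at 66 and 67.9 CPM against 0.0838 and 0.321 CPM (8.47 ± 0.73, adjusted p = 0.000101). Itgae and Itgb7, the pair of skin-resident T cells and dendritic cells, were at 52.1 and 67.9 CPM and at 73.5 and 58.3 CPM, against 0.796 and 1.09 CPM and 0.545 and 0.129 CPM. Itgal (6.23 ± 0.63) and Itgam (5.48 ± 0.49) passed with each library left out, whereas Itga4 (4.62 ± 1.16, adjusted p = 0.0106) did not without EpdSC A (0.0566). Itgad was at 1.1 and 0.654 CPM against 0 in both EpdSC libraries, at least 5.49-fold higher, and lost its call without any 1 library (adjusted p 0.0769 to 0.127). Itga2b was higher by 2.39 ± 0.48 (adjusted p = 0.00395), at 13.4 and 5.71 CPM against 2.14 and 1.41 CPM. Itgam, Itgax and Itgad are neighbours on chromosome 7, in that order, between positions 128062640 and 128205504 of GRCm38.p6.

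These genes moved together with other genes of leukocytes and of the dermis, although the libraries were labelled as lineage-negative sorts. The lineage antigens are not listed in the labels. The 12 leukocyte markers summed to 4492 and 3596 CPM in wounded EpdSC and to 36.7 and 24.9 CPM in EpdSC, none was at 0 in a wounded EpdSC library, and all 12 tested were higher. They included Cd74 (3179 and 2352 CPM), Csf1r (231 and 225 CPM), Cd3g (34.7 and 49.2 CPM) and Cd207 (21.3 and 38 CPM). All 6 fibroblast markers were higher, with sums of 646 and 692 CPM against 2.85 and 2.51 CPM. Endothelial markers were higher in 3 of 4 tested, with sums of 15 and 11.3 CPM against 0.67 and 0.514 CPM, and melanocyte markers in 5 of 7, with 1 lower and sums of 20.9 and 26.5 CPM against 16.5 and 21.9 CPM. Acta2, a gene of smooth muscle and myofibroblasts, was at 1068 and 563 CPM in wounded EpdSC and also at 416 and 377 CPM in the wounded HFSC lineage. The other muscle and pericyte markers (Myh11, Rgs5, Pdgfrb and Des) were at 0.277 CPM or less in the wounded HFSC lineage. In wounded EpdSC Pdgfrb was at 4.93 and 6.15 CPM, and Myh11, Rgs5 and Des at 0.996 CPM or less. Keratinocyte markers summed to 147778 and 91694 CPM, and platelet markers to 11.1 and 7.8 CPM with Gp9 at 0. The part of such cells in each result on this group, Itga5 included, was not tested. In the wounded HFSC lineage, leukocyte and fibroblast markers summed to at most 39.1 and 9.81 CPM.

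**Figure D4:**
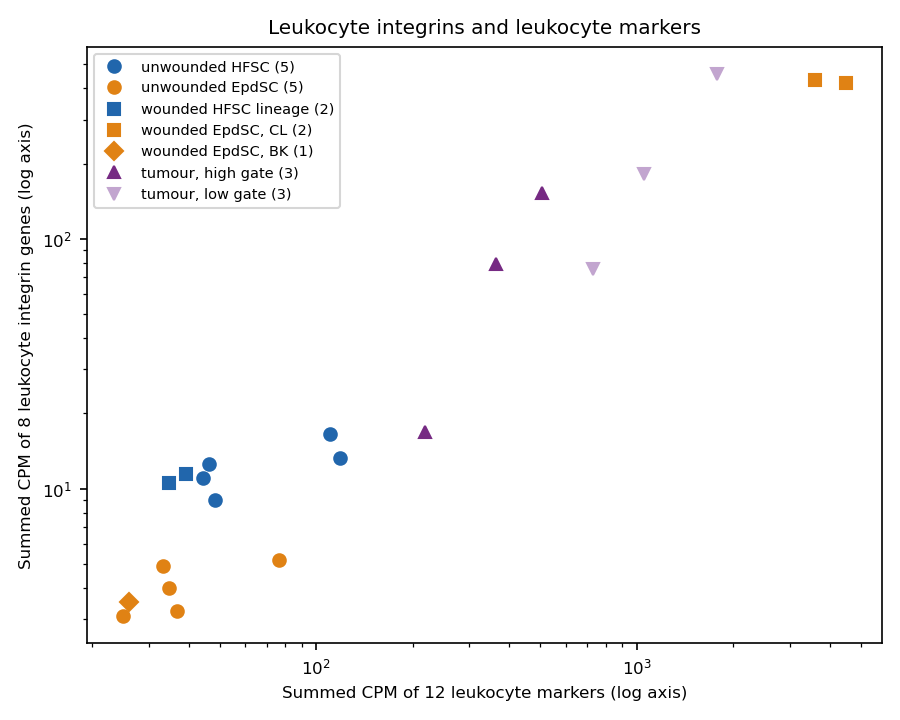
Summed CPM of 8 leukocyte integrin genes (vertical, log axis) against that of 12 leukocyte markers (horizontal, log axis) in each of 21 RNA libraries. Wounded EpdSC of CL (420 and 430 CPM) and the tumour libraries (16.8 to 456 CPM) lie above the unwounded libraries (3.08 to 16.5 CPM), while the BK wounded EpdSC library (3.52 CPM) lies among unwounded EpdSC.

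Between the wounded groups of CL, the HFSC lineage had less of the leukocyte integrins and of Itga5 than wounded EpdSC. It was higher for 1 of 35 members, Itgb8, and lower for 10 (6.8% and 12.4% of all genes). Itgb1, at 589 and 927 CPM against 246 and 609 CPM, was not called. Neither was Lama1, at 1.66 and 4.89 CPM against 5.73 and 7.8 CPM. Itgb8 was at 14.9 and 36.8 CPM against 3.14 and 6.1 CPM (2.48 ± 0.56, adjusted p = 0.0294), the same side as in unwounded skin. Its call was lost without wounded HFSC lineage B (1.66, adjusted p = 0.164) or wounded EpdSC A (0.0938), and with only the 4 libraries fitted (0.0712). Itga5 was lower by -0.98 ± 0.18 (adjusted p = 0.0146), lost without wounded HFSC lineage A (0.104) or B (0.124) and with only the 4 libraries fitted (0.0579). Itgae, Itgal, Itgam, Itgax, Itgb2 and Itgb7 were lower and kept their calls without each library, with log2 differences of -3.09 (Itgam) to -6.93 (Itgal). Itgad (at 0 in the HFSC lineage and at least 8.03-fold lower), Itgb3 (-5.55 ± 1.00) and Itga9 (-4.16 ± 0.93) were also called, and each lost its call without at least 2 of the libraries (adjusted p up to 0.241).

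The wound responses of the lineages were compared by the interaction term, the HFSC response minus the EpdSC response. Of 35 members, 1 was higher and 9 lower (5.31% and 10.5% of all genes), and Itgb1 was not called. The 9 were 7 leukocyte integrins, from Itgam (-3.75 ± 0.62) to Itgb2 (-8.65 ± 0.96), and Itga5 and Itgb5. Itga5 rose in both lineages and rose less in the HFSC lineage, by -2.13 ± 0.26 (adjusted p = 0.00247), a call kept without each library. Itgb5 differed by -1.44 ± 0.38 (adjusted p = 0.0421), lost without any of 6 libraries (adjusted p 0.0673 to 0.161). Itga4 moved in opposite directions, falling in the HFSC lineage and rising in EpdSC (-7.73 ± 1.50, adjusted p = 0.0141), lost without EpdSC A (0.053). Lama1 was the 1 member with the opposite sign (3.86 ± 1.00, adjusted p = 0.0394). It fell in EpdSC and was low in HFSC both before and after wounding. Its call was lost without any of 5 libraries (adjusted p 0.057 to 0.128). The interaction term and both wound comparisons use the same 8 libraries, so they are not independent of each other.

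Partners of the integrins and laminins changed in both wounds. Hemidesmosome genes were lower in 4 of 6 tested in the HFSC lineage, among them Dst (-2.58 ± 0.44) and Col17a1 (-1.47 ± 0.27), and in 5 of 6 in EpdSC. Basement membrane partners were lower in 7 of 12 and higher in 1 in the HFSC lineage, and lower in 5 and higher in 2 of 12 in EpdSC, with the collagen IV chain Col4a6 at -4.78 ± 0.35 and -5.67 ± 0.37. Of 12 matrix ligands 7 were lower and 2 higher in the HFSC lineage, and 6 lower and 4 higher in EpdSC. Cyr61, a ligand of Itgav pairs, was among the lowest in both (-5.83 ± 0.29 and -6.04 ± 0.29). Fn1, the ligand of Itga5, was lower in the HFSC lineage (-3.54 ± 0.43, adjusted p = 0.000523) and its response differed between lineages (-3.90 ± 0.56, adjusted p = 0.00443). Of 15 activators and adaptors, 2 were higher and 4 lower in the HFSC lineage, led by Vcl (1.88 ± 0.23). In EpdSC 7 were higher and 3 lower, among them Parvg (6.92 ± 0.53) and Fermt3, genes best known from blood cells, beside the leukocyte markers given above. Of 4 other laminin receptors, 1 was higher and 2 were lower in each lineage: Sdc1 rose (0.70 ± 0.21 and 1.88 ± 0.21), and Sdc4 (-1.79 ± 0.19 and -2.31 ± 0.20) and Bcam (-1.93 ± 0.25 and -0.94 ± 0.24) fell.

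The wounded EpdSC library of BK differed from those of CL in several members. Against the 2 BK EpdSC libraries, 0 of 32 members were higher and 5 lower (1.77% and 6.21% of all genes). DESeq2 called 1 higher and 6 lower (8.67% and 14.6% of all genes). The lower genes were Lama5 (26.3 CPM against 255 and 399 CPM, -3.70 ± 0.53, adjusted p = 0.0445), Lamb1 (-2.72 ± 0.50), Lamc1 (-2.38 ± 0.42), Itga3 (-2.12 ± 0.43) and Lamb2 (-2.06 ± 0.39). Lama5, Lamb2, Lamc1 and Itga3 were lower in wounded EpdSC of CL too. Lamb1 was at 2.93 CPM against 15.6 and 21.4 CPM here, the lowest of the 21 libraries, while in CL wounded EpdSC it was above EpdSC. Itga5 was at 8.37 CPM against 20.8 and 10.2 CPM (-0.95 ± 0.53, adjusted p = 0.255), also opposite in sign to CL. Whether the letters A5pos3 in this library's name stand for a gate that bears on Itga5 is not known. Itgb1 was at 1026 CPM against 549 and 559 CPM (0.83 ± 0.36, adjusted p = 0.166), and Lama1 at 19.1 CPM against 21.8 and 39.2 CPM (-0.74 ± 0.56, adjusted p = 0.388). The leukocyte integrins summed to 3.52 CPM and the leukocyte markers to 26 CPM, both below the CL wounded EpdSC libraries, and 0 of 7 leukocyte integrins passed. With 1 wounded library the test assumed that it varies like the other groups. The number of members called lower was 10 without EpdSC 1 and 11 without EpdSC 2, with 4 higher in each case. All genes moved as well, to 25.1% and 25.6% lower and 22.4% and 20.3% higher. The sets differ in the gate, the unstated letters of the column name and the experiment, which cannot be told apart here.

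In tumours, integrin alpha 6 low cells had more leukocyte integrins and Lama4 than high cells, over 3 genotypes. Of 34 members tested, 1 was higher in the high gate, Lama5 (0.76 ± 0.13, adjusted p = 0.0487), and 6 were lower (0.124% and 2.95% of all genes). Itgb2 was at 10.1, 13.7 and 3.47 CPM in the high libraries of HRas, HRas TbrKO and TbrKO tumours and at 35.1, 86.1 and 18.7 CPM in the low ones. The low library was above the high one in every genotype (-2.27 ± 0.22, adjusted p = 0.0257). Itgam was at 14.5, 23.3 and 4.8 CPM against 54, 213 and 28.8 CPM (-2.54 ± 0.27, adjusted p = 0.0266), and Itgax at 6.86, 10.4 and 3.95 CPM against 27.3, 47.2 and 20.4 CPM (-2.16 ± 0.16, adjusted p = 0.0221). Itgal (-2.08 ± 0.32) and Itga4 (-1.92 ± 0.28) were lower as well. Itgb7 did not follow, at 41.1, 97.2 and 1.88 CPM in the high gate and 29.9, 58.6 and 1.14 CPM in the low gate (0.65 ± 0.13, adjusted p = 0.0648). Its partner Itgae was higher in the low gate of both HRas-bearing tumours, at 14.3 and 5.31 against 0.937 and 0.572 CPM, and not in TbrKO tumours, at 0.403 CPM in the low and 0.517 CPM in the high gate.

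Lama4 was at 21.5, 11.1 and 31.3 CPM in the high gate and 65.2, 54.1 and 65.9 CPM in the low gate (-1.62 ± 0.24, adjusted p = 0.0407). Lama2, a laminin chain best known from muscle and nerve, was lower in every genotype but did not pass (-2.08 ± 0.35, adjusted p = 0.0509). Itga5 (-0.51 ± 0.28, adjusted p = 0.336), Itgb1 (0.52 ± 0.18, adjusted p = 0.181) and Lama1 (-1.12 ± 0.60, adjusted p = 0.328) did not pass either. Leukocyte markers summed to 365, 507 and 219 CPM in the high libraries of HRas, HRas TbrKO and TbrKO tumours and to 1051, 1781 and 730 CPM in the low ones. Fibroblast markers summed to 888 to 2137 CPM in the high and 5516 to 11150 CPM in the low libraries, and 6 of 6 were lower in the high gate, so stromal and leukocyte genes moved with these members and their part was not tested. This contrast depended on single libraries. Without either HRas TbrKO library or HRas high, 0 members and 0% of all genes were called in either direction. Without HRas low 2 members were lower and 0 higher, beside 0.209% and 0% of all genes. Without either TbrKO library 16 members were lower and 4 higher. All genes called moved in these last fits too, to 16.3% or 16.2% lower and 5.99% or 4.04% higher.

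TbrKO tumours differed from the HRas-bearing tumours in more members than the gates did. They were higher for 5 of 34 and lower for 15 (21.1% and 21% of all genes). Itgb8 was at 60.7 and 48.4 CPM in the high and low libraries of TbrKO tumours, and at 1.89 to 5.06 CPM in the 4 HRas-bearing libraries, without overlap (4.05 ± 0.35, adjusted p = 0.00243). For comparison, unwounded HFSC of all sets had 11.5 to 39.4 CPM, a difference across sets that was not tested. Itgb6 (1.14 ± 0.15), Itgb5 (1.35 ± 0.30) and the laminin chains Lamb2 (1.71 ± 0.14) and Lama5 (0.60 ± 0.13) were the other members called higher. Itgb5 and Lama5 lost their calls without 2 and 3 of the libraries (adjusted p up to 0.0793 and 0.114).

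The laminin receptors Itga3 and Itga7 and the chains Lama3, Lamb3 and Lamb1 were lower in TbrKO tumours. Itga3 was at 290 and 128 CPM against 641 to 1235 CPM (-2.26 ± 0.21, adjusted p = 0.00264) and Itga7 at 10.4 and 6.08 CPM against 22.9 to 46.5 CPM (-2.00 ± 0.17, adjusted p = 0.0022). Lama3 was lower by -1.35 ± 0.24 and Lamb3 by -0.84 ± 0.25 (adjusted p = 0.0475). Lamb1 (-0.99 ± 0.19), Itgb1 (-0.94 ± 0.20, adjusted p = 0.0183), Itga2 (-0.77 ± 0.14) and Itga9 (-1.45 ± 0.28) were also lower. Of these genes Lama3, Lamb3, Lamb1, Itgb1, Itga2 and Itga9 lost their calls without at least 1 library (adjusted p up to 0.188), among them HRas high in each case. Itgb7 fell most of all members called, from 29.9 to 97.2 CPM to 1.88 and 1.14 CPM (-5.14 ± 0.17, adjusted p = 0.000876). Itgal, Itgam, Itgb2, Itga4 and Itgax were lower too, with log2 differences of -2.56 (Itgal) to -0.96 (Itgax), and Itga4 and Itgax lost their calls without 5 and 2 of the libraries (adjusted p up to 0.214 and 0.0737). Leukocyte markers were lower in 7 of 10 tested, with a median log2 difference of -1.32, and endothelial markers in 5 of 5, with a median of -1.45 and sums of 52.1 and 53.6 CPM against 99 to 238 CPM. The part of such cells in the results on the members lower in TbrKO tumours was not tested. Itga5 (0.53 ± 0.29, adjusted p = 0.195) and Lama1 (-0.41 ± 0.62, adjusted p = 0.614) did not pass.

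HRas TbrKO tumours were compared with HRas tumours over both gates. By edgeR, 0 of 34 members were called in either direction, as was 0% of all genes higher and 0% lower. At an unadjusted p under 0.05 there were 12 members, or 35.3%, beside 11.6% of all genes. DESeq2 called 2 members higher and 1 lower, beside 2.06% and 0.675% of all genes. Itgb7 had the smallest edgeR adjusted p, at 97.2 and 58.6 CPM in HRas TbrKO against 41.1 and 29.9 CPM in HRas tumours (1.12 ± 0.15, adjusted p = 0.184). Itga5 was at 36.1 and 87.2 CPM against 77.2 and 115 CPM, Itgb1 at 1602 and 1182 CPM against 2194 and 1885 CPM, and Lama1 at 0.286 and 2.44 CPM against 3.48 and 3.81 CPM, all lower within each gate and none past the threshold. With TbrKO high or TbrKO low left out, 6 members were called lower, and 4 or 2 higher, beside 2.24% or 1.82% of all genes lower and 4.38% or 4.02% higher.

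Tumour cells of the high gate had more Lamb1, Itga11, Itga5 and several other members than Tbr skin stem cells of the same set. In this fit the 3 genotypes stood in for replicates of the tumour, and the 2 lineages for replicates of skin. Of 34 members 9 were higher and 0 lower (11.9% and 9.56% of all genes), with a median log2 fold change of 1.68 against 0.12 over all genes. Lamb1 was at 407, 240 and 201 CPM in HRas, HRas TbrKO and TbrKO tumours and at 13 and 20 CPM in Tbr HFSC and EpdSC (4.11 ± 0.62, adjusted p = 0.00883). Itga5 was at 77.2, 36.1 and 113 CPM against 12 and 9.28 CPM (2.82 ± 0.47, adjusted p = 0.0114), lost without Tbr EpdSC (0.0653). Itga11, a collagen receptor best known from fibroblasts, was at 3.75, 1.61 and 4.84 CPM against 0 and 0.0803 CPM (adjusted p = 0.0115), and no fold change is given against so few counts. Lamb1 and Itga11 kept their calls without each library.

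Itgb1 was at 2194, 1602 and 1180 CPM against 393 and 656 CPM, without overlap, but did not pass (1.67 ± 0.53, adjusted p = 0.06). Lama1 was at 3.48, 0.286 and 1.18 CPM against 6.36 and 23.4 CPM (-3.16 ± 0.98, adjusted p = 0.0567). Itgb2 (4.88 ± 1.01), Itgax (4.45 ± 0.83), Itgb3 (4.28 ± 1.18), Lama2 (2.21 ± 0.57), Lama4 (1.93 ± 0.45) and Lamc1 (1.17 ± 0.34) were the other members called, and each lost its call without at least 1 library (adjusted p up to 0.169). Fibroblast markers (6 of 6) and endothelial markers (5 of 5) were higher in these tumour cells. Tumour libraries of the high gate summed to 888 to 2137 CPM of fibroblast and 52.1 to 175 CPM of endothelial markers, against 8.15 and 36.3 CPM and 1.29 and 1.93 CPM in the skin libraries. Leukocyte markers were higher in 4 of 11 tested, with sums of 365, 507 and 219 CPM against 110 and 33.3 CPM. Platelet markers were higher in 2 of 3, with sums of 152, 276 and 8.64 CPM against 1.31 and 1.29 CPM, and Gp9 was at 0 in all 5 libraries. Most of each tumour sum was Ppbp, at 142, 269 and 7.27 CPM, while Gp1bb was below both skin libraries in all these tumours. The part of such cells in the results on all members called here, Lamb1 and Itga5 included, was not tested.

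Partner genes were counted in the same way in tumours. In TbrKO against HRas-bearing tumours, basement membrane partners were higher in 4 of 12 and lower in 2, led by Col4a6 (6.11 ± 0.60) and Col4a5 (4.15 ± 0.20), and matrix ligands were higher in 5 of 13 and lower in 2, among them Vcam1 (3.64 ± 0.40), a ligand of Itga4. Against Tbr skin, tumour cells of the high gate had more of 6 of 13 matrix ligands, with Tnc, a ligand of Itga9, at 4.72 ± 0.92, and of 5 of 12 basement membrane partners, with Nid1, which links laminin to collagen IV, at 7.48 ± 0.48. Hemidesmosome genes were lower for Itga6 in TbrKO tumours (-1.47 ± 0.18) and for Dst in high-gate tumours against skin (-2.32 ± 0.28), where Cd151, a tetraspanin that binds laminin receptors, was higher (0.82 ± 0.24, adjusted p = 0.0463).

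In the ATAC-seq peak lists, the promoter windows of the integrin and laminin genes, each 250 bases before to 50 after the start site, overlapped peaks in 10 to 14 of 23 genes per list. The lists were called from pooled samples and held 55435 peaks in HFSC, 25742 in EpdSC, 56865 in the wound and 54201 in the tumour, from 26825550, 13963471, 11140895 and 29579794 fragments. With 1 list per population there was no replicate and no test, and a peak missing from a list is only a peak that was not called. Of the 23 members with a window, 14 overlapped a peak in HFSC, 10 in EpdSC, 14 in the wound and 13 in the tumour, which is 60.9%, 43.5%, 60.9% and 56.5% of them, beside 42%, 30%, 40% and 37.9% of all genes with a window. With the peak's summit required to lie inside the window, the counts were 8, 7, 7 and 7, or 34.8% in HFSC and 30.4% in the other lists, beside 26.3%, 19.4%, 27.4% and 25.3% of all genes. The windows of Itgb1, Itgb5, Itgb8, Itgav, Itga1, Itga2, Itga8, Lamb1 and Lamb3 overlapped a peak in all 4 lists. Those of Itgam, Itgax and Itgb7, the leukocyte integrins beside Itga4 with a window, overlapped none in any list, the wound included. Itgal, Itgax and Itgad had no peak in any list anywhere in the gene.

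Itga4 and Itga5 differed in their peaks as well as in RNA. The Itga4 window (chr2:79255176-79255475) overlapped a peak in HFSC alone, at chr2:79255330-79256134, with a fold enrichment of 5.71. That peak began 96 bases before the start site, so it held the RUNX motif printed above, at 60 to 55 bases before the start, and not the GC box, at 114 to 109. A weaker wound peak (fold enrichment 3.77) began 171 bases after the start, and the EpdSC and tumour lists had none within 2 kb of it. For Itga5, the HFSC, wound and tumour lists each had a peak with its summit 245, 214 and 219 bases after the start site, and the EpdSC list had none there. The wound peak began 14 bases before the start and the tumour peak 1 base after it, so both overlapped the window, and the HFSC peak began 108 bases after the start and did not. All 3 lay wholly or almost wholly beyond the bases printed above. A peak inside the gene, at chr15:103358541-103358937 in the wound (fold enrichment 9.12) and chr15:103358503-103358914 in the tumour (9.42), was in neither the HFSC nor the EpdSC list. A peak about 20 kb into the gene was shared by EpdSC (5.16) and the wound (8.96). The lists differ in depth and in mice from the RNA libraries, and whether any of these peaks acts on Itga5 or Itga4 was not tested.

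**Figure D5:**
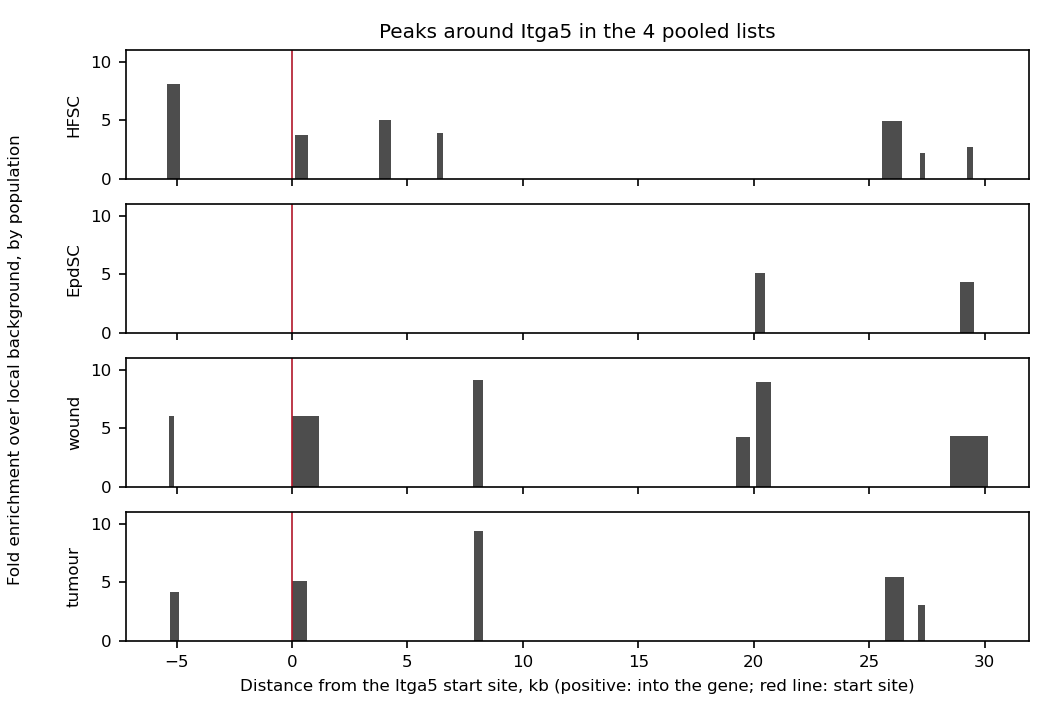
Peaks of the 4 pooled lists around Itga5, by distance from its start site in kb (horizontal, positive into the gene) and fold enrichment as the authors' peak caller gave it (vertical), with the bar width showing the peak width. The peak near 8 kb is in the wound and tumour lists and not in the HFSC or EpdSC lists.

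The windows of Lama5, Lamb2 and Itga3 overlapped a peak in HFSC, wound and tumour lists but not in the EpdSC list, while Lama5 RNA did not pass between HFSC and EpdSC (-0.48 ± 0.21, adjusted p = 0.129). Lama5 fell in both wounds while its window overlapped a peak in the wound list, with a fold enrichment of 4.3 beside 3.84 in HFSC. Lama1 and Itga7 had no promoter window in the table. Within its gene, Lama1 had 2, 3, 3 and 1 peaks in the HFSC, EpdSC, wound and tumour lists.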

How the data were processed

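RNA was read as single reads of 51 cycles, per the labels' protocols. The submitters' processing notes name STAR, Bowtie, Picard, MACS2 version 2.1.1.20160309 and the build mm10. The program that counted reads, its strand setting and its annotation are not stated, so reads of overlapping or antisense genes cannot be told apart. The authors deposited raw counts per gene for 21 libraries, all of whose columns matched a sample. They also deposited 1 pooled ATAC-seq peak list per population, which per the file headers hold the pileup signal at the summit, fold enrichment, and −log10 p and q values from MACS2, with a q limit of 0.05. Counts were compared with edgeR 4.0.16 (R 4.3.3, limma 3.58.1): TMM, filterByExpr, the quasi-likelihood F test and Benjamini-Hochberg adjustment over all genes tested. Each of CL and BK was fitted with 1 mean per group, the combined unwounded fit had the set as a term, the 6 tumour libraries were fitted with genotype and gate as terms, and the comparison with Tbr skin used all 8 DS libraries. Depth was 14216472 to 36425082 counts, so a floor of 3 counts in a library stood in for 0 in bounds on folds, which cover counting error only. DESeq2 1.42.0 was an alternative, as were no low-count filter, a replicate block, removal of the trend with gene span, tables with Ensembl identifiers, and leaving out each library. The trend was fitted in each library, on the log2 CPM minus the gene's mean over the libraries, against the gene's log2 span in RefSeq. It entered the test as a correction per gene and library. RefSeq had a span for 99.4% of genes. Of the identifiers in the tables per library, 98.9% matched a symbol. Promoter windows and spans came from RefSeq (GRCm38.p6), and a window counted as overlapping with 1 shared base. Members that passed the test and Itga5, Itgb1 and Lama1 were named, and from the partner lists up to 4 genes per comparison with the largest changes. Other members named without passing, and single markers, were chosen after their values were seen. The members, partner lists and marker lists were chosen with earlier results of these data known. A member is not reported by name or drawn here, but stays in the counts of members. The statistics were tested on simulated data, in which the genes given a known fold change were few and not at low counts. That test does not cover members at low counts or comparisons in which many genes changed. Python 3.11.15, pandas 2.3.3 and matplotlib 3.10.9 were used.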

Additional observations from a re-analysis of the deposited data

Results flagged for a closer look

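The response to wounding differed between the lineages, by the interaction term in edgeR, for 10 of the 35 genes. Of these, 1 was higher and 9 lower, beside 5.31% and 10.5% of all genes. Values are the log2 response of the HFSC lineage minus that of EpdSC. The leukocyte integrins Itgb2 (-8.65), Itgal (-7.73), Itga4 (-7.73), Itgax (-7.23), Itgb7 (-6.98), Itgae (-6.13) and Itgam (-3.75) rose in wounded EpdSC, where leukocyte markers summed to 4492 and 3596 CPM. In the HFSC lineage Itgax and Itgam were called higher, Itga4 was called lower and the others were not called. Itga5 (-2.13) and Itgb5 (-1.44) rose in both lineages and less in the HFSC lineage. Lama1 (3.86) fell in EpdSC, and in the HFSC lineage its change did not pass. Of these, Itga4, Itgb5 and Lama1 lost their call without at least 1 library.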

How the results depend on the processing

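No log2 fold change of a named gene that had passed changed its sign under any alternative run. Apart from leaving out libraries, 579 calls of members were kept and 15 were lost, 7 of them with the replicate block, 3 with the span trend removed, 2 without the low-count filter, 2 with only the 4 libraries compared and 1 with the Ensembl tables (Itgam in the difference of wound responses, adjusted p = 0.053). With 1 library left out, 498 calls were kept and 166 lost. Members that had not passed gained a call in 98 of 1200 cases, 44 of them by DESeq2 and 24 with the span trend removed, and in 128 of 1516 cases with 1 library left out. Except where stated, the causes were not tested.

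Counts of members called moved as follows, with the share of all genes called under the same setting in brackets. The ranges given further below, with a library left out, stand without that share, which moved as well. By DESeq2, 8 were lower in combined unwounded HFSC (13.9%), 5 higher in BK HFSC (10.1%) and 2 higher in the difference of responses (11.7%). DESeq2 also called 1 higher in BK wounded EpdSC (8.67%), and 4 higher and 12 lower in the tumour gate (2.14% and 9.11%). It called 2 higher and 1 lower in HRas TbrKO (2.06% and 0.675%). In tumours against Tbr skin it called 16 higher and 1 lower (21.3% and 15.9%). With the span trend removed, 8 were lower in combined HFSC (19.6%), 5 lower in CL HFSC (7.8%) and 3 higher in the difference of responses (21.7%). Under that setting 1 was higher in BK wounded EpdSC (5.8%), 4 higher in the tumour gate (1.43%) and 1 lower against Tbr skin (12.2%). Without the low-count filter, 2 were higher in the difference of responses (6.88%) and 1 higher in BK wounded EpdSC (3.34%). With the Tbr skin libraries added, 8 were lower in combined HFSC (12.4%). With only the 4 libraries, 0 were higher in the wounded HFSC lineage against wounded EpdSC (0.611%). With a peak's summit required in the window, 8, 7 and 7 promoters overlapped a peak in HFSC, wound and tumour (26.3%, 27.4% and 25.3%).

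Leaving out 1 library at a time gave these ranges, higher then lower: combined HFSC 5 to 7 and 3 to 6, CL HFSC 0 to 1 and 1 to 3, BK HFSC 1 to 7 and 2 to 9, wounded HFSC lineage 6 to 8 and 4 to 7, wounded EpdSC 14 to 16 and 5 to 11. For the wounded groups against each other they were 0 to 6 and 6 to 13, for the difference of responses 0 to 6 and 7 to 12, and for BK wounded EpdSC 4 to 4 and 10 to 11. For the tumour gate they were 0 to 4 and 0 to 16, for TbrKO 3 to 9 and 7 to 20, for HRas TbrKO 0 to 4 and 0 to 6, and against Tbr skin 4 to 12 and 0 to 0.

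The labels do not say that replicate letters or numbers mark shared mice, so they were not taken to pair the samples. Deviations of same-numbered samples correlated at -0.484 to 0.161 over 5 pairs of groups in CL, at 0.792 for the wounded HFSC lineage with wounded EpdSC, and at -0.329 in BK. In CL the replicate block was a term common to all groups, so it could not stand for pairing of the wounded groups alone, which was not tested. With the replicate block, 3 members were lower in combined HFSC, beside 5.9% of all genes. There Itga1 (adjusted p = 0.0538), Lama3 (0.0658) and Lamc1 (0.0932) lost their calls. Calls were also lost with the block for Itga9 (0.0504) and Itgad (0.0632) between the wounded groups, Itgb5 in the difference of responses (0.0593) and Itga3 in BK (0.076). With the block in BK 2478 genes were called, against 2108 without it. A crossed replicate block, added after seeing the data, gave 3627 genes. It gave 6 members higher and 5 lower, beside 14.4% and 11.9% of all genes. In the tumours the gates were compared within genotype, and the genotypes within gate, in the reported fit. No paired analysis was possible for BK wounded EpdSC because it had 1 library.

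Removing the span trend moved the median log2 fold change of all genes by more than 0.1 in several comparisons, for example from -0.10 to 0.14 in the wounded HFSC lineage and from -0.06 to 0.31 in the difference of responses. It moved the share of calls that were higher from 60% to 37.4% (combined HFSC), 66.5% to 47.1% (CL HFSC), 46.3% to 57.8% (wounded HFSC lineage), 35.4% to 66.8% (wounded groups), 33.7% to 68.1% (difference of responses), 22.2% to 39.2% (BK wounded EpdSC), 4.04% to 26.4% (tumour gate) and 55.5% to 42.3% (Tbr skin). DESeq2 moved that share to 46.8% (wounded groups), 37.3% (BK wounded EpdSC) and 19% (tumour gate). Over all genes, calls numbered 2847 between the wounded groups but 1037 with only the 4 libraries, 5527 by DESeq2, 4454 with the span trend removed and 4303 without the filter. For the difference of responses they numbered 2339, but 4053 by DESeq2 and 4728 with the trend removed. For BK wounded EpdSC they numbered 1169, but 3410, 2173 and 2131 by DESeq2, with the trend removed and without the filter, and for the tumour gate 446, but 1633, 788 and 777. By DESeq2 they numbered 397 in HRas TbrKO, against 0, and 5745 against Tbr skin, against 3323. The number of libraries limits the precision of groups of 1 or 2.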
